A study of Mus musculus with 2 samples.

Results

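The laminin chain genes were described on 2 arrays of mouse fetal liver. They are the genes of the alpha, beta and gamma chains whose probe sets the platform annotation assigns to 1 gene alone. The rule picks them by name and not by value, but it was set with earlier results of these data known. The rule found 9 genes with 17 probe sets, of 18193 genes in all: Lama1, Lama2, Lama3, Lama4 and Lama5 for the alpha chains, Lamb1, Lamb2 and Lamb3 for the beta chains, and Lamc1 for the gamma 1 chain.

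One array held liver RNA labelled Prox1 f/f;Foxa3Cre and called the knockout here: both Prox1 alleles are floxed, and Cre is expressed from Foxa3, which is active in the endoderm of gut and liver. The other array held wild-type liver RNA. Both came from E14.5 embryos of the strain label NMRI/C57Bl6. Not given in the sources used here are the number of embryos behind each RNA sample, the deleted part of Prox1, and whether wild-type embryos carried a floxed allele or Cre. Neither genotype has a replicate, so there is no SD and no test, and every value below is 1 MAS5 signal of 1 sample. Signals are linear, and a common floor of 112.6 signal units, the median signal of the knockout array, was used: a chain above it is called measured, and a chain at or below it on 1 array gives only a bound. Log2 differences are given as knockout minus wild type.

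Laminins are the glycoproteins that build the first network of a basement membrane. Each is a trimer of 1 alpha, 1 beta and 1 gamma chain, joined by a coiled coil inside the cell and secreted whole, and the 3 digits of a laminin's name give its alpha, beta and gamma chain in that order. The alpha chain carries the globular domains that bind integrins and dystroglycan, while beta and gamma chains are needed for assembly and for the gamma chain's link to nidogen. In developing liver, bile ducts and portal vessels lie on laminin-containing basement membranes, whereas the sinusoids lack a continuous one.

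The study asks how the genes of fetal liver differ once Prox1, a homeodomain transcription factor of liver progenitors, is deleted. Prox1 itself read 221.8 in the knockout and 340.3 in wild type on its brightest probe set, a log2 difference of -0.62, and its other 2 probe sets were above the floor in wild type only. Albumin (Alb, 33186 in the knockout and 32396 in wild type) and alpha-fetoprotein (Afp, 35212 in the knockout and 36369 in wild type), which define fetal hepatic cells, were near the top of the scale on both arrays. Probe sets above the floor numbered 22518 on the knockout array and 21588 on the wild-type array. Xist, the RNA of the inactive X chromosome, read 365.7 in the knockout and 11467 in wild type, and the Y-linked Eif2s3y read 1972 in the knockout and 0.87 in wild type, so the samples also differed in sex-linked genes.

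Across the family, the chains above the floor on both arrays were Lama5, Lamb1 and Lamc1. Another 4 chains, Lama1, Lama3, Lamb2 and Lamb3, were above it in the knockout only, and Lama2 and Lama4 were below it on both. At this floor 60.8% of all genes were above it in the knockout and 58.2% in wild type. Of the 9 genes, 2 were at least 2-fold higher in the knockout, Lamb1 and Lama1, and 0 were at least 2-fold lower. Among all 11433 measured genes, the share beyond 2-fold was 3.27% on the higher side and 2.13% on the lower side. The median log2 difference was 0.58 over the 7 measured chains and 0.03 over all measured genes. Since 4 of those 7 were measured through the knockout array alone and had to lie above 0, this median and the counts of measured chains describe the arrays and are no evidence of a direction. Restricted to genes above the floor on both arrays, the median was 0.68 over 3 chains and 0.01 over 10216 genes.

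**Figure D1:**
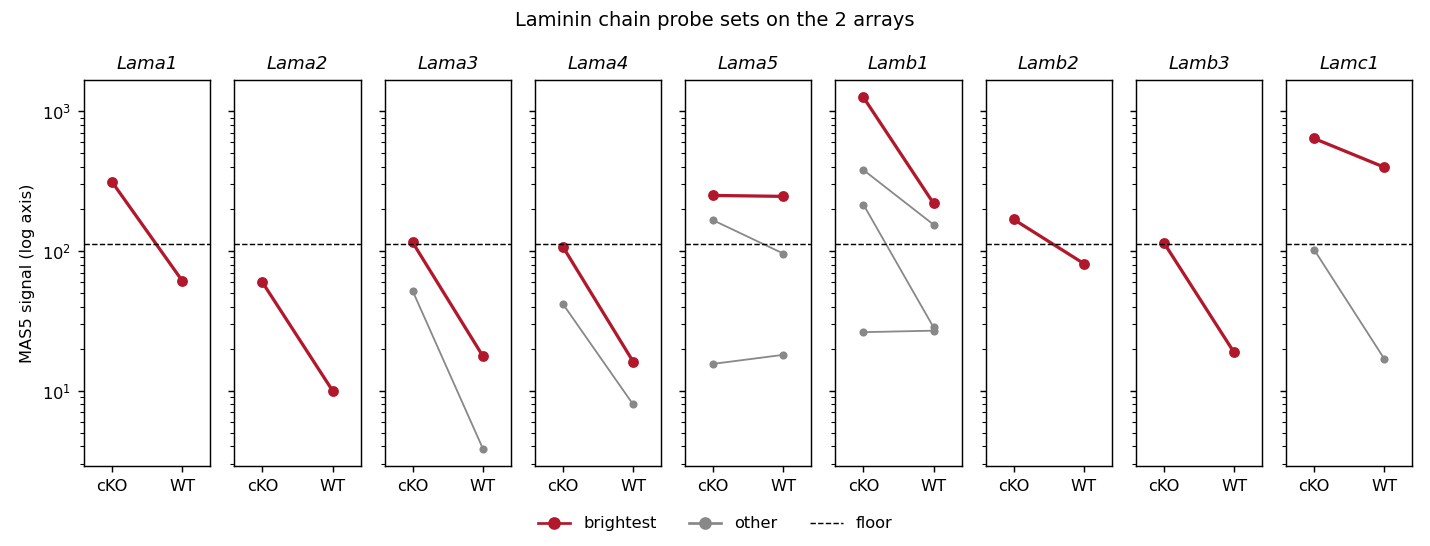
MAS5 signal (log axis) of every probe set of the 9 laminin chain genes, knockout (cKO) left and wild type (WT) right in each panel; red marks the brightest probe set of a gene, grey the others, and the dashed line the floor of 112.6. The Lamb1 line drops steeply towards wild type, the brightest Lama5 line is flat, and the lines of the other 4 alpha chains lie below the floor in wild type.

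Lamb1 encodes the beta 1 chain, which most laminins of embryonic tissue contain. Its brightest probe set, 1424114_s_at, read 1260 in the knockout and 218.8 in wild type, 5.76-fold higher in the knockout and a log2 difference of 2.53, the largest value or bound of a chain at this floor. That placed Lamb1 at rank 22 of 11433 measured genes, ordered from the most positive difference or bound. A second probe set, 1424113_at, read 380.3 in the knockout and 154.3 in wild type, a log2 difference of 1.30. The third, 1451241_at, read 215.0 in the knockout and 28.3 in wild type, so it was at least 1.91-fold higher. These 3 probe sets were designed from the same source sequence and are not independent of each other. The fourth, 1446180_at, from another source sequence, lay under the floor throughout, at 26.2 in the knockout and 26.9 in wild type. The suffix of the brightest one marks probes that match more than 1 transcript. With _s_at and _x_at probe sets left out the log2 difference of Lamb1 was 1.30. As the median over its probe sets it was 1.12, and under both of these settings the bound of Lama1 (1.47) was larger. With no floor, the differences of Lama4 (2.73), Lama3 (2.70), Lamb3 (2.61) and Lama2 (2.58), all dim, were larger than the 2.53 of Lamb1.

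Lamc1 encodes the gamma 1 chain, the partner of nearly every alpha chain outside skin. It read 638.9 in the knockout and 397.7 in wild type, 1.61-fold higher and short of the 2-fold mark, with a log2 difference of 0.68. Its other probe set, from the same source sequence, stayed under the floor, at 102.1 in the knockout and 16.9 in wild type. As the median over both probe sets the log2 difference was 0.34. Lamc3, the gamma 3 gene, is no member of the list and lay under the floor on each array, at 28.2 in the knockout and 48.4 in wild type on its brighter probe set.

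The beta chains other than Lamb1 were dim. Lamb2 encodes the beta 2 chain, known from the neuromuscular junction and the kidney glomerulus. Lamb2 read 168.3 in the knockout and 81.3 in wild type, at least 1.49-fold higher. Lamb3 encodes the beta 3 chain, which pairs with alpha 3 in the anchoring laminin of skin. Lamb3 read 114.5 in the knockout, just above the floor, and 18.7 in wild type, which gives a bound of 1.02-fold. Each of these genes has 1 probe set.

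Among the alpha chains, which give a laminin its receptor binding, Lama1 stood apart from Lama5. Lama1 encodes the alpha 1 chain of early embryonic epithelial basement membranes. Its only probe set, 1418153_at, read 311.1 in the knockout and 61.0 in wild type, where it was below the floor, so Lama1 was at least 2.76-fold higher in the knockout. Lama5 encodes the alpha 5 chain, the most widespread alpha chain of later epithelial and vascular basement membranes. Its brightest probe set, 1427009_at, read 249.8 in the knockout and 246.1 in wild type, a log2 difference of 0.02 that became -0.07 under quantile normalization, -0.06 under lowess correction and 0.56 when its probe sets were summarised by their median. A second Lama5 probe set, 1427010_s_at, crossed the floor, at 166.0 in the knockout and 95.7 in wild type, a bound of 1.47-fold. The third lay under the floor on each array.

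The other alpha chains gave little signal on either array. Lama3, the alpha 3 chain of epithelial anchoring laminins, read 115.1 in the knockout and 17.7 in wild type on its brighter probe set, a bound of 1.02-fold. Lama4, the alpha 4 chain of endothelium, which lacks the amino-terminal domain that laminins polymerise through, read 107.1 in the knockout and 16.1 in wild type, both below the floor. Lama2, the alpha 2 chain of muscle and peripheral nerve, read 59.6 in the knockout and 9.98 in wild type, also below it. The second probe sets of Lama3 and Lama4 were below the floor on both arrays. A chain below the floor was not detectable on that array by this measure, which does not show that it was absent.

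Over the 17 laminin probe sets, 15 had a higher signal in the knockout and 2 a higher one in wild type. Of all probe sets with 1 gene, 54.7% had a higher signal in the knockout. Of the 13 laminin probe sets at or below the floor in wild type, 11 read higher in the knockout, against 61.7% of such probe sets over the array. Signals this low scatter widely: among probe sets with a geometric mean signal below 50, the middle 95% of log2 differences without a floor ran from -3.29 to 3.88, with a median of 0.27. The 7 laminin probe sets below the floor on both arrays had differences from -0.21 to 3.75 on that scale, inside that range. Those of Lama5 (-0.21) and Lamb1 (-0.04) were below 0, and the others ran from 2.39 for Lama4 to 3.75 for Lama3. Of the 6 chains at or below the floor in wild type, 4 were above it in the knockout, where 11.1% of such genes over the whole array were. Lama1 and Lamb2 came from the part of the scale between 50 and the floor, from which 27.3% of genes crossed. Lama3 and Lamb3 were 2 of 4 chains under 50, from which 3.19% crossed, and both ended within 3 signal units of the floor.

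**Figure D2:**
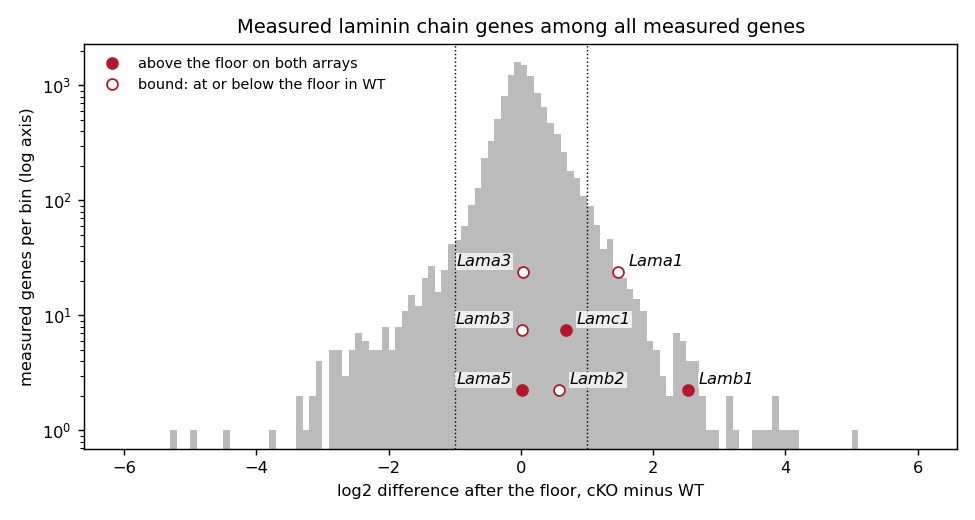
Number of measured genes (log axis) by log2 difference after the floor, knockout minus wild type, in grey, with the 7 measured laminin chains as points whose height has no meaning; filled points were above the floor on both arrays, open points are bounds, and dotted lines mark 2-fold. Lamb1 at 2.53 and Lama1 at a bound of 1.47 lie beyond the right-hand line, and the other 5 lie between 0 and 1.

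The promoter windows of Lamb1 and Lama5 are printed here, since both genes were above the floor on both arrays and their brightest probe sets gave log2 differences of 2.53 and 0.02. Windows of members on the chromosome of Lama3 were left out, so Lama3 was not examined. Among the other windows of the RefSeq table used (GRCm38.p6), 5 of the 9 genes had 1 or more: Lamb1, Lama5, Lama2, Lamb2 and Lamb3. Each window runs from 250 bases before to 50 after a transcript start. Capitals mark the GC box GGGCGG or its reverse CCGCCC, the motif that Sp1-type factors bind. Lamb1 lies at chr12:31265043-31265342 on the + strand and Lama5 at chr2:180225810-180226109 on the - strand, both printed 5′ to 3′ along the gene.
Lamb1: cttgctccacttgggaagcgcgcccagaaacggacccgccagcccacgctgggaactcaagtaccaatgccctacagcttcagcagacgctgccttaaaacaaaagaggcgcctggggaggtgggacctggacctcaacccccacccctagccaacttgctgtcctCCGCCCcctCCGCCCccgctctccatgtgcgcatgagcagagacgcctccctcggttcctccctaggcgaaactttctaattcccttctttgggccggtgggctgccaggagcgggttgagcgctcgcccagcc
Lama5: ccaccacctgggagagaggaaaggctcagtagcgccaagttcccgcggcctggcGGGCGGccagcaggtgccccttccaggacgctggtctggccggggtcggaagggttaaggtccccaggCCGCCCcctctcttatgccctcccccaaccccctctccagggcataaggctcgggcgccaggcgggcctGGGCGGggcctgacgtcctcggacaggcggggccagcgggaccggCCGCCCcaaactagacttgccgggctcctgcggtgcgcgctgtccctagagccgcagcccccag
The Lamb1 window held 2 GC boxes, whose first bases lie at -84 and -75 from the start, and the Lama5 window held 4. On either strand, 35.7% of 32851 promoter windows of this length held at least 1. G and C made up 63.7% of the Lamb1 window and 72.7% of the Lama5 window, against a median of 52.7% over all windows. The TATA box TATAAA and the GATA motif AGATAA were found on neither strand of either window, where 13.6% and 11.2% of all windows held them. A match to such letters is a description of the window and says nothing about which factor acts there.

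The chains above the floor were then set against the 10 trimers that an alpha chain can form with beta 1 or beta 2 and gamma 1. In the knockout, every chain of 6 trimers was above the floor: laminin-111, laminin-121, laminin-311, laminin-321, laminin-511 and laminin-521. In wild type this held for 1 trimer, laminin-511. The trimers laminin-211, laminin-221, laminin-411 and laminin-421 lacked their alpha chain above the floor on both arrays. The difference between the arrays came from Lama1, Lama3 and Lamb2 crossing the floor, since Lamb1, Lamc1 and Lama5 were above it on both. The count followed the floor. It was 2 trimers in the knockout, laminin-111 and laminin-511, and 1 in wild type at a floor of 190.4 (60th percentile). At a floor of 44.0 (30th percentile) it was 10 in the knockout and 4 in wild type. With each gene as the median of its probe sets it was 4 in the knockout and 0 in wild type.

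**Figure D3:**
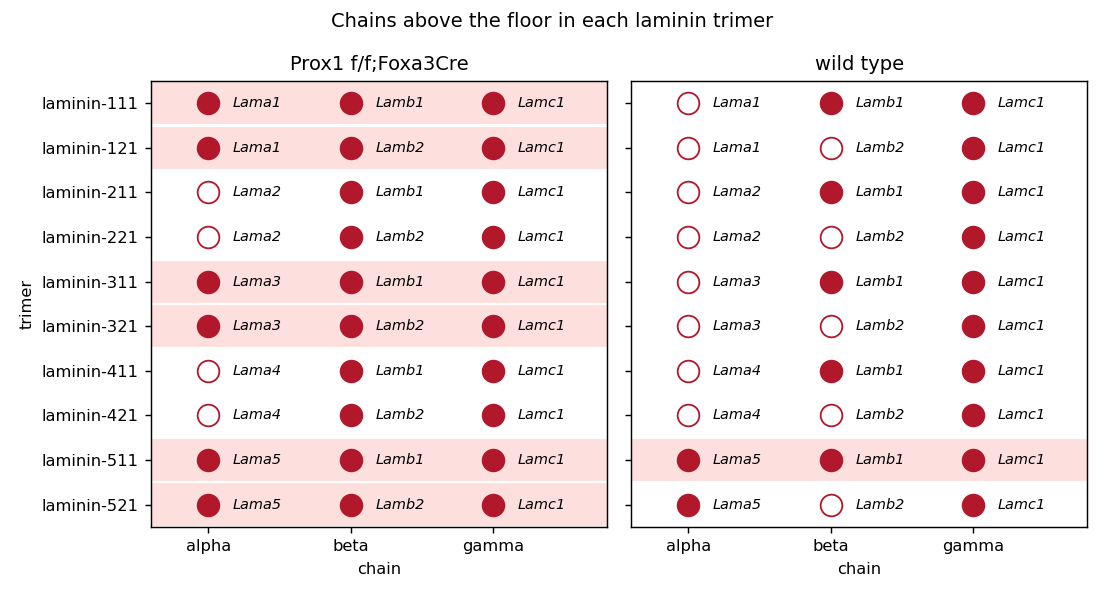
The 3 chains of each of 10 laminin trimers (rows) in the knockout (left) and wild type (right); filled circles mark a chain above the floor of 112.6, open circles a chain at or below it, and shading a trimer with all chains above it. Shading covers 6 trimers in the knockout and laminin-511 in wild type.

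Such a count lists chains present in the RNA of 1 whole organ. It does not place the chains in the same cell, and signals of different probe sets cannot be compared, so which chain limits a trimer was not measured. Trimers with other beta or gamma chains were not scored.

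Genes of the other components of basement membranes were listed beside the chains. Of 26 such genes, 20 were measured, 16 of them on both arrays. The others passed the floor in the knockout alone and had to lie above 0. At least 2-fold higher in the knockout were 4, all above the floor on both arrays, and 0 were at least 2-fold lower (3.27% and 2.13% of all measured genes). The median log2 difference of 0.44 (0.03 over all measured genes) is therefore no evidence of a direction. Fras1, an extracellular matrix protein that anchors epithelium to mesenchyme, read 610.2 in the knockout and 133.7 in wild type, 4.57-fold higher. Its partner Frem2 read 575.5 in the knockout and 164.1 in wild type, 3.51-fold higher. Fibulin 1 (Fbln1), which binds laminin and nidogen, read 803.1 in the knockout and 233.9 in wild type, 3.43-fold higher. Hemicentin 1 (Hmcn1) was 2.13-fold higher, at 504.5 in the knockout and 236.5 in wild type. The second Fras1 probe set was at least 3.24-fold higher. The other Fbln1 probe sets were at least 1.94-fold and 1.23-fold higher, so that Fbln1 was short of 2-fold as the median over probe sets (0.96). Under that setting Sparc, at 0.91 on its brightest probe set, passed 2-fold (1.20), and the count stayed at 4.

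Proteins that commonly join with laminin in basement membranes differed less. On their brightest probe sets, the collagen IV chains Col4a1 (log2 difference 0.57) and Col4a2 (0.69), the nidogens Nid1 (0.29) and Nid2 (0.34), agrin (Agrn, 0.47) and perlecan (Hspg2, 0.19) were higher in the knockout by less than 2-fold, and Nid1 turned to -0.32 as the median over its probe sets. Col18a1, the collagen from which endostatin is cut, had the lowest value of the list, 945.0 in the knockout and 1552 in wild type, a log2 difference of -0.72. Collagen IV chains Col4a3 and Col4a4 were below the floor on both arrays.

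Laminin receptors showed 1 gene beyond 2-fold. Of 14 listed, 11 were measured, all on both arrays. Of these, 1 was at least 2-fold higher in the knockout and 0 at least 2-fold lower (3.27% and 2.13% of all measured genes), with 6 above 0 and 5 below 0. Their median was 0.01, and it lay below 0 under quantile normalization (-0.11) and lowess correction (-0.03). Itga6, the integrin alpha 6 chain that pairs with beta 1 or beta 4 to bind laminin, read 1155 in the knockout and 508.9 in wild type, 2.27-fold higher, and its other probe set was 2.26-fold higher. Its partner Itgb1 read 2594 in the knockout and 2895 in wild type, while Itgb4 was below the floor on both arrays. Dystroglycan (Dag1) read 1547 in the knockout and 1202 in wild type. The tetraspanin Cd151, which holds laminin-binding integrins, had a log2 difference of 0.48 on its brightest probe set. On the other 4 above the floor on both arrays it ran from 0.17 to 1.27, and it was 0.17 with _s_at and _x_at probe sets left out. The collagen- and laminin-binding integrin chain Itga1 stood at 0.46 and the syndecan Sdc4 at -0.52.

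Of 12 enzymes that build the laminin-binding sugar of dystroglycan, 8 had a probe set of their own, all were measured on both arrays, and 0 were 2-fold apart in either direction. Their median was -0.0048, with values from -0.39 for B3galnt2 to 0.57 for Pomgnt1.

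**Figure D4:**
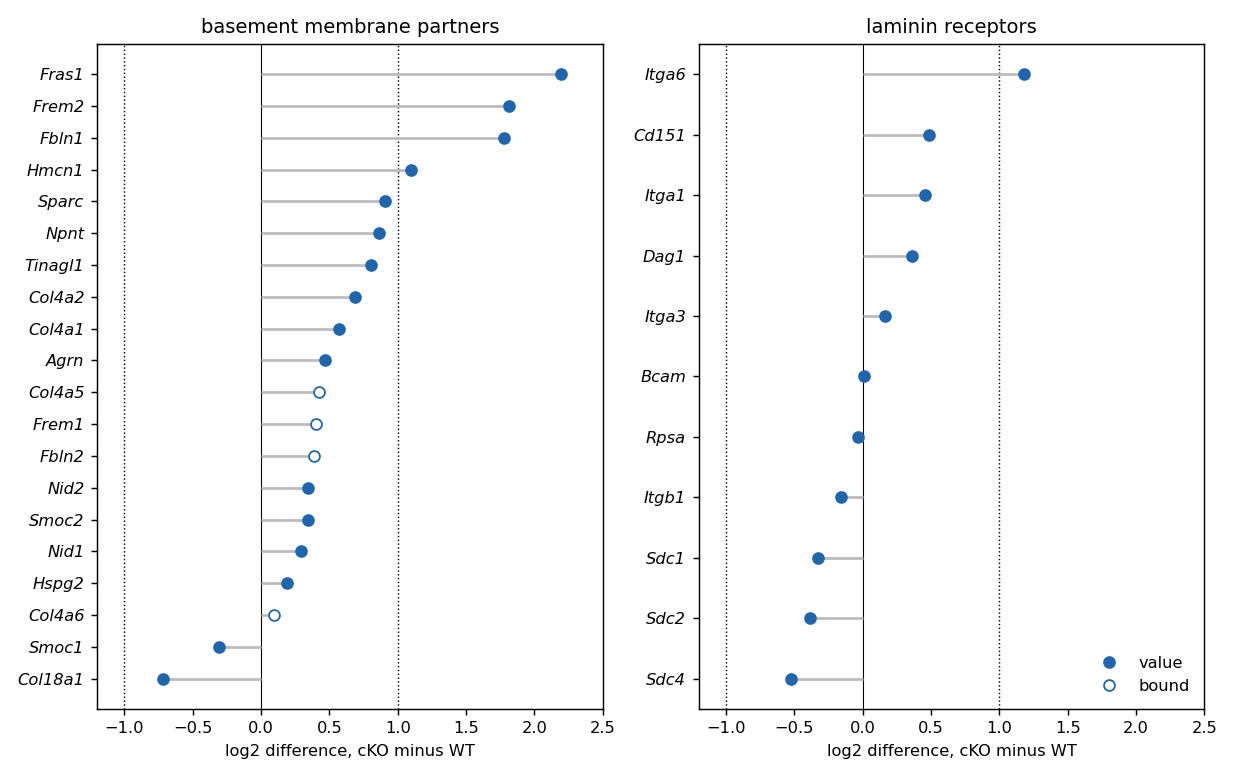
Log2 difference, knockout minus wild type, of the measured basement membrane partners (left) and laminin receptors (right); filled points are values, open points bounds, and dotted lines mark 2-fold. Fras1, Frem2, Fbln1 and Hmcn1 lie beyond the 2-fold line on the left, and Itga6 alone on the right.

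Markers of the cell types that could make these chains were read on the same arrays. All 12 stellate and mesenchymal markers were measured on both arrays. Of the 12, 7 were at least 2-fold higher in the knockout and 0 lower, against 3.27% and 2.13% of all measured genes. The list had a median of 1.22 and a summed signal of 27047 in the knockout and 12934 in wild type. Col1a1 was 3.96-fold higher and Hand2 3.24-fold, while the intermediate filament Des stood at -0.02. As the median over probe sets the list's median was 0.57, with 9 of 12 above 0, and Hand2 was below the floor on both arrays (35.2 in the knockout and 38.9 in wild type). Of 10 cholangiocyte markers, 7 had a probe set and 6 were measured, 5 of them in the knockout only. Of the 6, 3 were at least 2-fold higher and 0 lower (3.27% and 2.13% of all measured genes), with a median of 0.73. The 5 measured through the knockout array alone had to lie above 0, so these counts are no evidence of a direction. The summed signal of these markers was 2929 in the knockout and 1253 in wild type, with Krt19 at least 8.72-fold and Cldn7 at least 6.34-fold higher and Prom1 at -0.43. Of 8 mesothelial markers, 6 were measured and 0 were 2-fold apart, with a sum of 1200 in the knockout and 933.2 in wild type. In that list 4 markers were above 0, with Upk3b at 0.69 and Aldh1a2 at 0.50, and 2 were below it, Upk1b at -0.30 and Gpm6a at -0.16. Only 4 of the 6 were above the floor on both arrays. The others were measured through the knockout array alone and had to lie above 0, so this split is no evidence of a direction. The defining marker Msln was below the floor on both arrays. Of the 10 endothelial markers, 9 were above the floor on both arrays and the other in the knockout alone. The 10 had a median of 0.30, 0 beyond 2-fold and sums of 6116 in the knockout and 5142 in wild type, led by Plvap (0.57) and Pecam1 (0.55). In whole liver RNA, more cells of a type and more RNA per cell cannot be told apart, and the part of these cell types in the laminin differences was not tested.

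The remaining marker lists were as follows. The 7 macrophage markers had a median of 0.40 and sums of 12228 in the knockout and 8673 in wild type. Only Marco was beyond 2-fold, 2.71-fold higher at 2827 in the knockout and 1041 in wild type. In all, 6 were above 0, with Adgre1 at 0.77, and 1 was below it, Cd68 at -0.13. The 7 erythroid markers with a probe set had a median of -0.0058 and sums of 83800 in the knockout and 83962 in wild type, with 3 above 0, up to 0.19 for Slc4a1, and 4 below 0, down to -0.30 for Gata1 and -0.26 for Rhag. The 7 hepatoblast and hepatocyte markers with a probe set had a median of -0.05, which falls on Ttr near the top of the scale. That median became -0.37 without _s_at and _x_at probe sets. Their sums were 142601 in the knockout and 158663 in wild type. Of the 7, 2 were above 0, Dlk1 at 0.34 and Alb at 0.03, and 5 were below 0. Ahsg was the lowest of the 7, at 788.4 in the knockout and 10437 in wild type, and Hnf4a stood at -0.55. Of 7 muscle and heart markers only Actc1 was measured (80.6 in the knockout, below the floor, and 192.6 in wild type). Of 7 pancreas and gut markers only the brush border protein Vil1 was (259.6 in the knockout and 20.6 in wild type, below the floor).

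**Figure D5:**
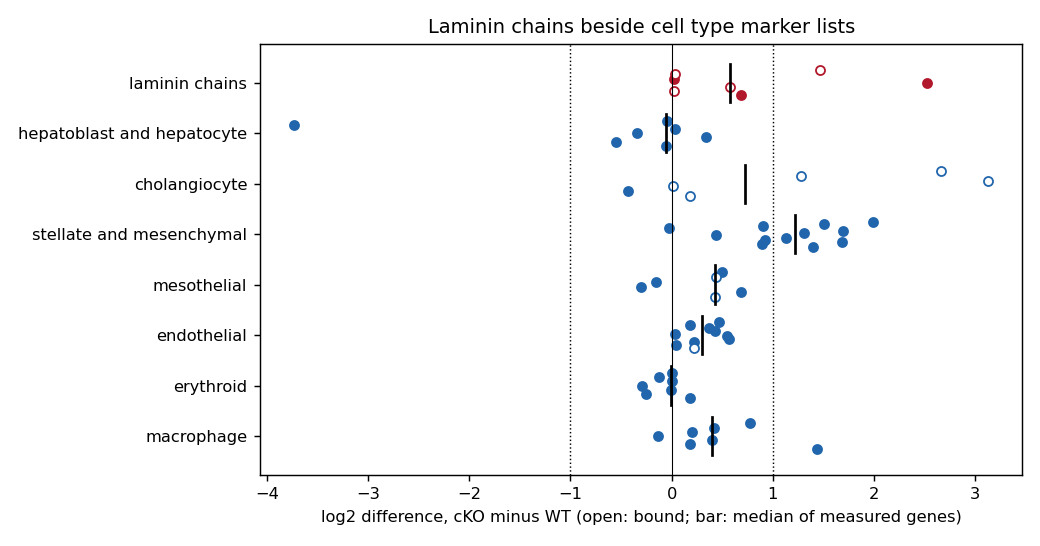
Log2 difference, knockout minus wild type, of the measured laminin chains (red, top row) and of the measured genes of 7 marker lists (blue); open points are bounds, black bars medians, and dotted lines mark 2-fold. At this floor the stellate and mesenchymal median is 1.22 and the cholangiocyte median 0.73 (1.67 at the 30th percentile floor), and the cholangiocyte list holds the bounds of Krt19 and Cldn7 beyond 2.

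The genes nearest to Lamb1 in their pair of log2 signals over the 2 arrays, among genes above the floor on both, were Gstm2, a glutathione transferase, at a distance of 0.14, Rnd2, a small GTPase, at 0.27, and Fmo4, a flavin monooxygenase, at 0.38. Gstm2 read 1141 in the knockout and 216.4 in wild type. With 2 arrays this likeness says only that both signals were similar.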

How the data were processed

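Liver RNA of 1 Prox1 f/f;Foxa3Cre sample and 1 wild-type sample was hybridized to single-colour Affymetrix arrays, per the labels' protocols as biotinylated cRNA. The deposited values are linear intensity, computed by the authors with MAS5 per the submitters' processing notes, which name no version. The 2% trimmed mean was 500.0 on both arrays, so values were used as deposited. MAS5 subtracts mismatch signal, and dim probe sets scatter widely.

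Of 45101 probe sets, 64 controls were left out; 34958 were annotated with 1 gene symbol and 932 with several, which name no gene here. Signals below the floor (50th percentile of the knockout array, the higher of the arrays) were raised to it before log2. A gene was its brightest probe set by mean log2 signal. Genes were counted at 2-fold, since 1 array per genotype allows no test. The number of arrays limits the precision.

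Members, lists, and the named genes (members, partner genes beyond 2-fold or the 4 farthest, 2 per marker list, and 3 nearest Lamb1) were chosen with earlier results of these data known. Genes outside that rule (Col4a1, Col4a2, Col4a3, Col4a4, Nid1, Nid2, Agrn, Hspg2, Col18a1, Sparc, Itgb1, Itgb4, Dag1, Des, Prom1, Msln, Upk1b, Gpm6a, Slc4a1, Cd68, Dlk1, Ttr, Xist, Eif2s3y, Alb, Afp) were named after their values were seen. Alternatives were 2 floors, no floor, the median over probe sets, quantile normalization, lowess correction and 2 other size marks; 2 more were chosen after seeing the data. The counting was tested on simulated arrays, made only from genes above the floor on both arrays, with changes set in genes far above it. That test did not cover changes in dim genes or bounds, so it does not bear on most of the laminin chains. Python 3.11.15, numpy 2.4.6, pandas 2.3.3, statsmodels 0.14.6 and matplotlib 3.10.9 were used.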

Additional observations from a re-analysis of the deposited data

How the results depend on the processing

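Dimness limits these results: 6 of 9 chains were at or below the floor in wild type. The count of laminin chains at least 2-fold higher was 2. A floor at the 30th percentile gave 6 of 9 measured chains (5.48% of measured genes), no floor and no filter gave 7 (13.0%), a floor at the 60th percentile gave 1 (2.55%), and a 3-fold mark gave 1. It was 2 or 3 under the other 6 alternatives, and 0 were lower under any of the 10. Where those 6 kept the 2-fold mark, the share over all measured genes ran from 2.23% to 3.51%. For the 1.5-fold and 3-fold marks that share was not computed, so the counts at these marks have nothing to be set against. The median of 0.58 became 1.28 at the 30th percentile, 2.53 without a floor and 0.70 at the 60th percentile, and 0.68 with each array's own floor, a setting chosen after seeing the data. Trimers with every chain above the floor were 10, 2 and 6 in the knockout and 4, 1 and 1 in wild type at the 30th, 60th and 50th percentiles, and 0 in wild type as the median over probe sets. No such count exists without a floor. Basement membrane partners at least 2-fold higher were 7 of 24 measured at the 30th percentile, where 5.48% of measured genes were. With no floor they were 8 of 26, against 13.0% of all genes, and 1 was lower. At a 1.5-fold mark 8 were higher and 1 lower, with no share over all genes to set beside them. At 3-fold, 0 receptors were higher. At the 60th percentile the bound of Lama1 was under 2-fold (0.71), while Lamb1 stayed above it in all 8 alternatives of its value (1.12 to 2.53); the changes with the floor follow from its construction. No paired analysis was possible because each genotype has 1 array.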
